A study of Pisaster ochraceus with 50 samples.

Results

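Dermis and tube feet were compared within the same animals in 12 asymptomatic ochre sea stars, Pisaster ochraceus, a predator of mussel beds on rocky shores of western North America. The comparison takes every animal from Point Reyes that was labelled asymptomatic and has a library of each tissue, which gives 24 of the 50 RNA sequencing libraries in the series, 12 of dermis and 12 of tube feet. The study asked which genes differ between tissues, between body sizes and between asymptomatic animals and those with signs of sea star wasting disease, in which the body wall develops lesions and breaks down. All 12 animals were taken from the field and biopsied there, with no experimental treatment, and the sources used here do not give their age, sex or genotype. By the labels, 2 animals were small, 3 medium, 5 large and 2 xlarge. The colour label was orange for 4 animals, brown for 7 and purple for 1. Feeding was noted for 2 animals, and 10 were labelled not feeding. McClures Beach gave 11 animals, and Lifeboat House gave 1, the purple animal.

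The dermis of a sea star is the connective tissue of the body wall. It holds the calcite ossicles of the skeleton in a collagenous matrix whose stiffness is under nervous control, and a biopsy of it can carry epidermis, muscle and the thin papulae through which gas is exchanged. Tube feet are the hydraulic appendages of the water vascular system. Each has a muscular stem and, in sea stars that grip prey and rock, a sensory and secretory disc that attaches and releases, so the tissue is known for muscle, nerve and adhesive secretion. Both are whole pieces of tissue, and in such bulk samples fewer cells of a type and less RNA per cell cannot be told apart. The files give each gene as an ID with no name, so the tissue labels were not checked against marker genes, and no gene below is given a function or a position.

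Gene reads per library lay between 373930 and 732460. CPM are gene reads scaled to a common total per library. By library size alone, 1 read was worth 2.67 CPM in the shallowest library and 1.37 CPM in the deepest. The CPM values below also carry factors for the libraries' composition. With these factors, 1 read of g7933 was 4.05 CPM in dermis of M0D055224L and 1.25 CPM in tube feet of M0D055226N. The tissues differed in several measures of the libraries themselves, each tested over the 12 pairs with a two-sided exact paired permutation test whose smallest possible p is 0.000488, and adjusted over the 6 measures. Dermis held fewer gene reads, 466360 ± 77260 against 669160 ± 32230 in tube feet (SD, n = 12 each), and was lower in every pair (adjusted p = 0.000977). The share of counted lines outside genes was 85.4% ± 2.33 in dermis and 79.8% ± 0.887 in tube feet, higher in dermis in 12 of 12 pairs (adjusted p = 0.000977). After every library was thinned to 373930 gene reads, dermis libraries still had a read in fewer genes, 9596 to 13299 with a median of 12092.5, against 12296 to 13888 with a median of 13521.5 in tube feet (lower in 12 of 12 pairs; adjusted p = 0.000977). Dermis reads were also gathered in fewer genes. The 10 genes with the most reads took 14.7% to 48.0% of the gene reads of a dermis library, with a median of 17.7%, and 11.3% to 16.1% in tube feet, with a median of 12.9% (higher in dermis in 11 of 12 pairs; adjusted p = 0.00117). The highest share, 48.0%, belonged to the dermis of animal M0D055226N, and the next highest dermis library had 25.2%. The part of these library differences in the gene results was not tested, apart from the fit at equal depth given below.

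Tissue was the first divide among the 24 libraries. The leading principal component of the log2 CPM values held 39.6% of the variance, with dermis libraries between -91.3 and -28.0 and tube feet libraries between 42.6 and 71.8. Dermis libraries were spread more widely along it. The tube feet library nearest to dermis was that of M0D055228P, an xlarge orange animal whose tube feet stand apart in several results below.

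Of 15148 genes tested, 4168 differed between dermis and tube feet (27.5%; edgeR quasi-likelihood F-test paired by animal, Benjamini-Hochberg false discovery rate under 0.01). In dermis 1725 genes were higher (11.4%) and 2443 were lower (16.1%), and 7315 genes had an unadjusted p under 0.05 (48.3%). The median log2 fold change was 1.42 among the higher genes and -1.64 among the lower genes, while over all genes tested it was -0.18. More than 4-fold differences were seen for 527 higher and 869 lower genes, and more than 16-fold differences for 167 higher and 228 lower genes. The split into higher and lower depends on how libraries are scaled. With library size alone in place of TMM factors, which weigh the libraries' composition, the median over all genes moved to -0.65, and 736 genes were called higher and 4049 lower. With every library thinned to equal depth, 1585 were higher and 1740 lower. Without M0D055228P the count was 4126 genes.

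**Figure D1:**
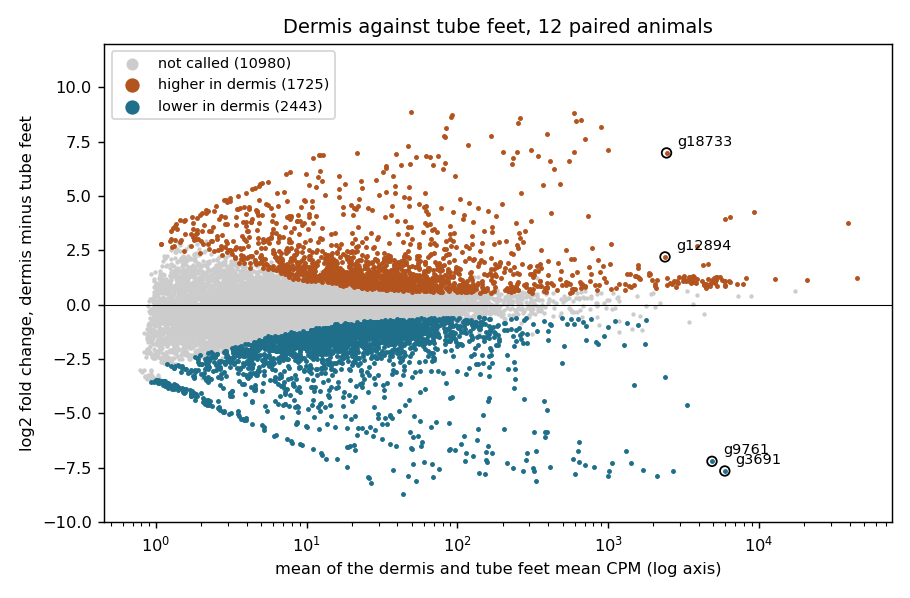
Log2 fold change of dermis over tube feet (vertical axis) against the mean CPM of the gene over both tissues (horizontal log axis), 1 point per tested gene. The 1725 genes called higher in dermis, the 2443 called lower and the genes not called are coloured apart, and the 4 named genes are ringed.

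The genes higher in dermis were fewer and more abundant. They held 66.0% ± 9.31 of all gene reads in dermis libraries and 35.1% ± 3.97 in tube feet libraries (SD, n = 12 each). The genes lower in dermis were more numerous and held 4.72% ± 2.28 of the gene reads in dermis and 26.0% ± 3.03 in tube feet. Of the 363 genes averaging 300 CPM or more over both tissues, dermis was higher for 52.1% and lower for 16.3%. Among the 4681 genes between 10 and 30 CPM the order was the other way round, 11.5% higher and 20.7% lower. Below 3 CPM, where a gene has few reads per library, 2.74% of 2589 genes were called higher and 6.60% lower. Of the 100 genes with the highest mean CPM in dermis, 88 were called higher in dermis and 0 lower, and 74 were also among the 100 leading genes of tube feet. Of those 100 leading tube feet genes, 64 were called higher in dermis and 18 lower. These shares also moved with the scaling. With library size alone, dermis was higher for 28.9% and lower for 24.5% of the 363 most abundant genes, the class between 100 and 300 CPM turned from more higher calls (26.4% against 22.9% lower) to more lower calls (35.4% against 12.8% higher), and of the 100 leading dermis genes 56 were called higher and 1 lower.

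**Figure D2:**
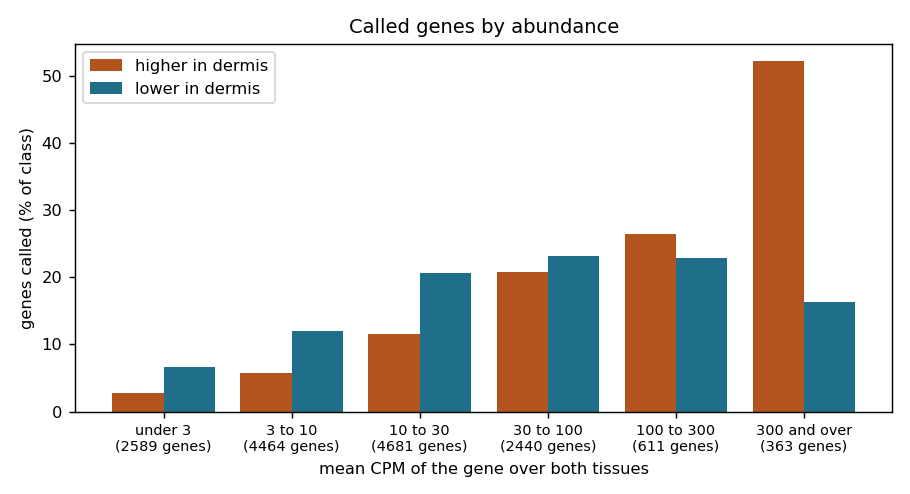
Share of tested genes called higher and lower in dermis (bars, percent of the class) in 6 classes of mean CPM over both tissues. The share called higher reaches 52.1% in the most abundant class, where 16.3% are called lower, and in the classes below 100 CPM the share called lower is the larger.

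How often the libraries themselves kept apart differed between the directions. Of the genes called lower in dermis, 1309 (53.6%) were lower in all 12 pairs, and of those called higher, 639 (37.0%) were higher in all 12. Over all genes tested, called or not, 9.22% were lower in every pair and 4.40% higher in every pair. No dermis library overlapped a tube feet library for 395 of the genes called lower (16.2%) and 166 of those called higher (9.62%). Every gene without overlap was called, so the same genes make up 2.61% and 1.10% of all genes tested. In the 12 dermis libraries 107 of the genes called lower had no read at all, and in the 12 tube feet libraries 40 of the genes called higher had none. Dermis libraries were shallower, with a mean of 466360 gene reads against 669160, so a gene more easily goes without a read there. Genes without a read were not counted at equal depth or over all genes tested. Both the calls and these counts rest on the same libraries.

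The genes named here have the highest mean CPM in the higher tissue among those called with more than 4-fold differences, the same direction in 12 of 12 pairs and no overlap of libraries. In dermis, g3691 ranged from 15.7 to 110 CPM with a median of 56.8, and in tube feet from 593 to 17700 CPM with a median of 12980. Its log2 fold change was -7.65 ± 0.32 (SE; adjusted p = 2.24e-20). The 593 CPM were those of the tube feet of M0D055228P, while the other 11 tube feet libraries had at least 8470 CPM. For g9761, dermis libraries held 32.0 to 115 CPM (median 53.9) and tube feet libraries 606 to 15310 CPM (median 10500), and the fitted log2 fold change was -7.20 ± 0.36 (SE; adjusted p = 1.67e-18). The lowest tube feet value was again that of M0D055228P, and the next was 6660 CPM. The groups of libraries did not overlap for either gene, and dermis of M0D055228P was not high in them, with 15.7 and 40.9 CPM.

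Of the 2 genes named for being higher in dermis, g18733 varied more between animals. It ranged from 323 to 23200 CPM in dermis (median 1992) and from 1.25 to 305 CPM in tube feet (median 8.80). The difference within a pair lay between 3.54 and 10.8 on the log2 scale, and the fitted log2 fold change was 6.99 ± 0.52 (SE; adjusted p = 2.02e-13). The highest tube feet value and the lowest dermis value, 305 and 323 CPM, nearly met, but they came from different animals. By contrast g12894 was steady. It held 2193 to 6963 CPM in dermis (median 3806) and 511 to 1275 CPM in tube feet (median 767), the pairs differed by 1.62 to 2.84, and the log2 fold change was 2.20 ± 0.20 (SE; adjusted p = 1.96e-11). In the pyloric caecum, the digestive gland, libraries of the same 12 animals held a median of 3.96 CPM of g18733 and 1109 to 5591 CPM of g12894. The caecum libraries, scaled together with the 24 others, lay low like tube feet for g18733 and overlapped both tissues for g12894. For g3691 and g9761 the caecum medians were 34.8 and 24.7 CPM, far below the tube feet of most animals. The 4 genes were called with the same sign in each of the 25 other fits tried. They were chosen for differences without overlap in these same libraries, so this describes them and is no test.

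**Figure D3:**
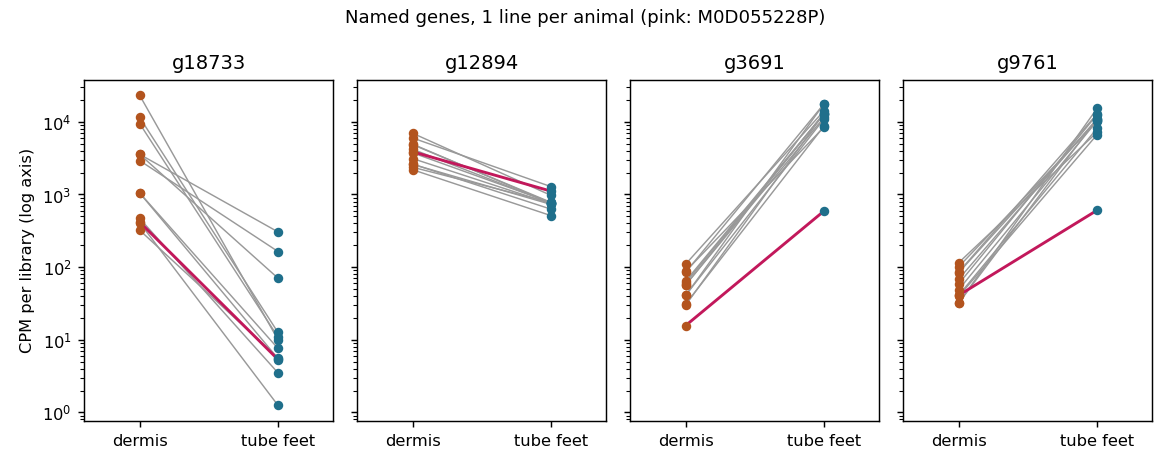
CPM per library on a log axis in dermis and tube feet for the 4 named genes, with a line joining the libraries of 1 animal and M0D055228P in pink. Every line for g18733 and g12894 falls to the right and every line for g3691 and g9761 rises, and M0D055228P has the lowest tube feet value of g3691 and g9761, 593 and 606 CPM.

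The size of the tissue difference varied between animals and moved with the batch labels. The correlation across genes between an animal's dermis and its own tube feet lay between 0.674 and 0.850, and between 570 and 2435 tested genes differed by more than 4-fold within a pair. The closest pair was M0D055228P, with r = 0.850 and 570 genes, and the furthest by the count of genes was M0D055226N, with 2435. The labels name 5 batches without saying what a batch is, and both libraries of an animal carry the same batch number in 7 animals and different numbers in 5. The correlation was 0.736 to 0.850 in the 7 pairs of 1 batch and 0.674 to 0.730 in the 5 pairs of different batches, with no overlap (two-sided exact permutation test, p = 0.00126, adjusted p = 0.00379 over 9 measures). More than 4-fold differences within a pair numbered 570 to 1670 genes in pairs of 1 batch and 1560 to 2435 in pairs of different batches (exact permutation test, adjusted p = 0.00379). At equal depth the counts were 551 to 1243 against 1258 to 1846 genes (exact permutation test, adjusted p = 0.00379). These comparisons were added after the data had been seen.

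Other measures moved with the same division. Dermis libraries at equal depth had a read in 11247 to 13299 genes in the pairs of 1 batch and in 9596 to 11896 genes in the pairs of different batches (exact permutation test, adjusted p = 0.00379). In tube feet the ranges were 12837 to 13780 genes in pairs of 1 batch and 12296 to 13888 genes in pairs of different batches (exact permutation test, adjusted p = 0.494). Dermis gene reads were 389821 to 611964 in pairs of 1 batch and 373930 to 512603 in pairs of different batches (exact permutation test, adjusted p = 0.0881). The wide spread of dermis along the leading principal component also followed this division, untested. Dermis libraries lay at -85.1 to -28.0 in pairs of 1 batch and at -91.3 to -75.2 in pairs of different batches. The batch itself was part of the division. All pairs with a library of batch 1 or 5 were pairs of 1 batch, and all pairs of different batches came from batches 2 to 4. The pair of M0D055225M, both of batch 2, had the lowest correlation (0.736) and the most genes beyond 4-fold (1670) among pairs of 1 batch. The part of each batch was not tested. Size class was also part of the division, since all 3 medium animals were among the pairs of different batches and all small and xlarge animals among the pairs of 1 batch. The 5 large animals held both kinds, with correlations of 0.736, 0.783 and 0.779 in the 3 pairs of 1 batch and 0.676 and 0.730 in the 2 pairs of different batches, a difference that was not tested. The part of the number of genes seen in dermis was not tested. Gene by gene, 0 of 15148 genes differed in their tissue difference between both kinds of pair (0%; edgeR, false discovery rate under 0.01). The smallest adjusted p was 0.0111, for g1913 (edgeR), and 1871 genes (12.4%) had an unadjusted p under 0.05. This comparison was not tried on simulated data, so the changes it can miss are not known. The tissue comparison gave 2255 genes in the 7 pairs of 1 batch alone, 2174 of them also among the 4168, and 2798 genes in the 5 pairs of different batches alone. With the batch number as a further term it gave 3830 genes.

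**Figure D4:**
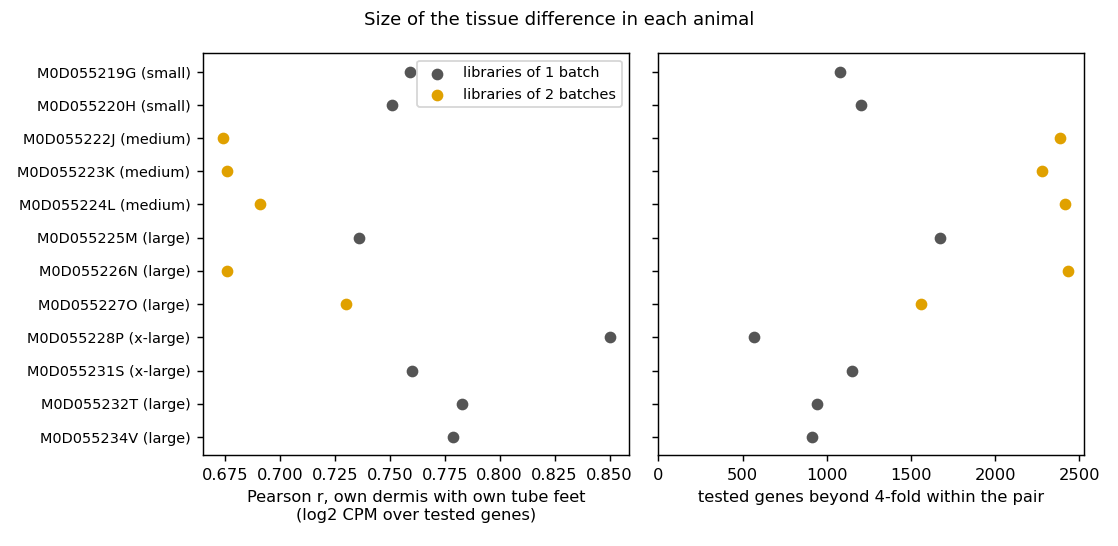
For each animal (rows, with its size class), the Pearson correlation across tested genes between its dermis and its own tube feet (left, log2 CPM) and the number of tested genes beyond 4-fold within the pair (right). The 7 pairs whose libraries share a batch number have the higher correlations, 0.736 to 0.850, against 0.674 to 0.730 in the other 5.

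Dermis varied more between animals than tube feet did. The biological coefficient of variation, edgeR's estimate of the spread between animals beyond counting error, was 0.509 in dermis and 0.386 in tube feet over the same genes, a ratio of 1.32 ± 0.122 (jackknife SE over 12 animals). With any 1 animal left out the ratio lay between 1.26 and 1.38. The SD of log2 CPM between animals was larger in dermis for 12215 of 15148 genes (80.6%), and for 6862 of the 8095 genes that averaged 10 CPM or more (84.8%), where the median SD was 0.729 in dermis and 0.453 in tube feet. Dermis libraries were shallower, and the SDs were not counted again at equal depth. At equal depth the ratio was 1.22, and over the 2127 genes averaging 50 CPM or more it was also 1.22. The part of the batches in this spread was not tested. Dermis libraries also lay further from the other libraries of their tissue, at a root mean square distance of 0.796 ± 0.104 log2 units against 0.644 ± 0.0680 in tube feet (SD, n = 12 each; larger in dermis in 10 of 12 pairs; exact paired permutation test, adjusted p = 0.00342).

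Libraries that took no part in the fit mostly showed the same directions. In the symptomatic animals M0D055233U and M0D055236X, 82.4% and 84.9% of the 4168 genes had the fitted direction between their own dermis and tube feet, against 66.1% and 67.0% of all genes tested. For 2 asymptomatic dermis libraries with no tube feet partner, M0D055221I and M0D055229Q, set against the 1 tube feet library with no dermis partner, that of M0D055230R, the shares were 79.2% and 86.3%, against 62.3% and 67.1% of all genes. Each of these is 1 pair of libraries, described without a test. The 4 named genes had the fitted direction in all 4 of these pairs. In the symptomatic animals g3691 stood at 41.0 and 32.6 CPM in dermis and 8190 and 9560 CPM in tube feet, within or near the ranges of the 12 animals. For g12894 the symptomatic dermis libraries held 1410 and 3470 CPM and the symptomatic tube feet libraries 1150 and 3090 CPM, so the levels nearly met in both animals, and the tube feet of M0D055236X exceeded all 12 asymptomatic tube feet libraries.

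The tissue difference was next compared between larger and smaller animals, as an interaction of tissue with body size (large and xlarge, 7 animals, against small and medium, 5 animals). Of 15148 genes, 14 differed (0.0924%; edgeR, false discovery rate under 0.01). The difference of dermis over tube feet was higher in larger animals for 10 (0.066%) and lower for 4 (0.0264%). At an unadjusted p under 0.05 there were 1000 genes (6.60%). In simulated data this test called 7 of 66 genes given a 4-fold change and 34 of 66 given an 8-fold change, so many changes can be missed. The median shift between larger and smaller animals was 0.98 in dermis and -1.94 in tube feet for the 10 genes, and -1.70 in dermis and 1.05 in tube feet for the 4, on the log2 scale. DESeq2 called 12 genes, of which 3 were among the 14. The count depended on single animals. It was 0 without M0D055220H, 2 without M0D055222J, 7 without M0D055227O and 8 without M0D055219G, and it was 26, 34 and 58 without M0D055224L, M0D055225M and M0D055228P.

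For g17646 the groups differed mainly in dermis. In larger animals its dermis libraries held 0 to 14.1 CPM (median 7.63) and its tube feet libraries 246 to 700 CPM (median 462). In the 5 smaller animals dermis held 504, 430, 190, 7.12 and 3.56 CPM, and tube feet 121 to 544 CPM. The groups of dermis libraries overlapped through 2 medium animals, M0D055222J and M0D055223K, and the interaction was -4.65 ± 0.87 on the log2 scale (SE; adjusted p = 0.0071). The call rested on single small animals, with -3.65 (adjusted p = 0.0134) without M0D055219G and -3.85 (adjusted p = 0.0655) without M0D055220H, and it was lost in the robust edgeR fit (adjusted p = 0.574) and in DESeq2 (adjusted p = 0.0196). Outside the comparison, dermis of the small animal M0D055221I held 904 CPM and dermis of the xlarge animal M0D055229Q held none. Dermis of the medium symptomatic animal M0D055236X held 4.66 CPM, within the range of larger animals, and that of the large symptomatic animal M0D055233U 14.5 CPM. Their tube feet held 48.1 and 271 CPM, the first below all 12 tube feet libraries of the comparison. For g19717, larger animals had 50.5 to 507 CPM in dermis (median 226) and 1.41 to 12.5 CPM in tube feet (median 4.66), and smaller animals had 74.8 to 167 CPM in dermis (median 114) and 12.1 to 24.9 CPM in tube feet (median 15.5). The interaction was 2.81 ± 0.51 (SE; adjusted p = 0.00656). Its call was lost without M0D055219G, M0D055220H or M0D055222J, at adjusted p = 0.0117, 0.0192 and 0.0107. In edgeR it was also lost without the animal as a block (adjusted p = 0.166), with the filterByExpr filter (adjusted p = 0.138) and against a minimum fold of 2 (adjusted p = 0.113). The differences within a pair were 3.52 to 6.55 in larger animals and 1.67 to 3.18 in smaller animals. The gene was chosen by this same contrast, so these ranges describe it and are no test. Dermis of the small animal outside the comparison held 71.6 CPM of g19717 and that of the xlarge animal 208 CPM.

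The other named genes of the size comparison were less orderly. The interaction of g7933 was 4.67 ± 0.81 (SE; adjusted p = 0.00656). It was 2.79 (adjusted p = 0.819) without the animal as a block and 4.03 (adjusted p = 0.0394) without M0D055220H, and the robust edgeR fit and DESeq2 gave adjusted p = 0.516 and 0.0245. Its tube feet held 1.25 to 321 CPM in larger animals (median 4.22) and 0 to 515 CPM in smaller animals (median 384). The 321 CPM and the values of 384, 388 and 515 CPM in smaller animals were those of the 4 orange animals, and the gene was also called for colour, with an interaction of -4.75 ± 0.72 for orange minus brown animals (SE; adjusted p = 8.01e-06). Outside the comparison its tube feet held 915 CPM in the orange symptomatic animal M0D055236X, 31.1 CPM in the brown symptomatic animal M0D055233U and 11.2 CPM in the orange animal M0D055230R. Its dermis ranges overlapped, 2.54 to 467 CPM in larger and 4.05 to 595 CPM in smaller animals. The interaction of g2983 was -4.49 ± 0.80 (SE; adjusted p = 0.00656). Its call was lost without M0D055219G, M0D055220H or M0D055222J, at adjusted p = 0.0117, 0.0264 and 0.0107, and with a colour term, at -3.71 (adjusted p = 0.0153). This gene is close to the limit of detection, with 58 reads in the 12 dermis libraries and 158 in the 12 tube feet libraries. Body size was not independent of colour or batch, since 1 of 7 larger and 3 of 5 smaller animals were orange, and 5 of 7 larger and 2 of 5 smaller animals had both libraries in 1 batch.

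Colour was tested in the same way. Among the 11 animals labelled orange (4) or brown (7), 43 of 15125 genes differed in their tissue difference (0.284%; edgeR, false discovery rate under 0.01), 3 higher in orange animals (0.0198%) and 40 lower (0.264%). At an unadjusted p under 0.05 there were 921 genes (6.09%). The count was 74, 72, 74 and 69 without M0D055222J, M0D055223K, M0D055228P and M0D055232T, and between 32 and 74 with any 1 animal left out. DESeq2 called 15 genes, all 15 among the 43. Size and colour shared 4 called genes, 28.6% of the 14 and 9.30% of the 43.

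The 40 genes with a lower difference in orange animals were mostly higher in orange than in brown tube feet. Their median shift between orange and brown animals was -0.14 in dermis and 2.86 in tube feet on the log2 scale. For 34 of the 40 every orange tube feet library lay above every brown one, which was so for 1.12% of all genes tested. For 0 of the 40 did every orange dermis library lie above every brown one, a count that says little, since this was so for only 0.463% of all genes tested. These genes were chosen by the same contrast, so the counts describe them and are no test. Over the 40 genes, the median difference from the brown mean was 2.44, 3.49, 2.46 and 3.21 log2 units in the 4 orange tube feet libraries, against -0.901 to 0.738 in the 7 brown ones. In dermis the orange libraries lay at 0.0966, -0.0526, 0.513 and -0.873, within the brown range of -1.59 to 1.31.

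Tube feet libraries that took no part in the colour fit divided. That of the orange symptomatic animal M0D055236X lay at 2.25, near the 4 orange libraries, and that of the brown symptomatic animal M0D055233U at -0.0874. The purple animal lay at -0.55. The remaining orange tube feet library, that of the asymptomatic xlarge animal M0D055230R, lay at -0.59, in the brown range. Of 2 orange libraries not used to choose the genes, 1 was therefore high and 1 was not.

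The gene with the smallest p, g16101, held 52.2, 103, 65.4 and 83.5 CPM in the 4 orange tube feet libraries and 2.76 to 15.0 CPM in the 7 brown ones (median 9.84), with no overlap. In dermis it held 9.44 to 64.1 CPM in orange and 17.8 to 92.6 CPM in brown animals. The interaction was -3.92 ± 0.53 (SE; adjusted p = 1.07e-06). Outside the fit, orange tube feet held 21.8 CPM in M0D055236X and 18.2 CPM in M0D055230R, and brown tube feet held 12.4 CPM in M0D055233U. Likewise g19098 held 47.4, 53.7, 46.0 and 79.2 CPM in orange tube feet and 0 to 6.25 CPM in brown tube feet (median 3.75), while dermis held 59.8 to 260 CPM in orange and 34.7 to 382 CPM in brown animals. Its interaction was -3.80 ± 0.54 (SE; adjusted p = 2.4e-06). Outside the fit it stood at 61.9 CPM in orange tube feet of M0D055236X, 12.6 CPM in those of M0D055230R and 14.9 CPM in brown tube feet of M0D055233U.

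Of the 3 genes with a higher difference in orange animals, g9043 held 112, 79.2, 28.5 and 48.8 CPM in orange dermis and 7.12 to 31.1 CPM in brown dermis (median 22.6), which overlapped through 1 orange animal. Its tube feet held 35.1 to 52.2 CPM in orange and 31.7 to 129 CPM in brown animals, and the interaction was 2.33 ± 0.47 (SE; adjusted p = 0.0017), a call lost without M0D055219G (adjusted p = 0.0368) or M0D055220H (adjusted p = 0.0197). Outside the fit, g9043 held 330 and 74.2 CPM in orange tube feet of M0D055236X and M0D055230R. Brown tube feet of M0D055233U held 153 CPM. Orange dermis held 170 CPM in M0D055236X and 70 CPM in M0D055221I, and brown dermis 28.9 CPM in M0D055233U and 43.3 CPM in M0D055229Q. The second, g2983, was also called for size and had an interaction of 4.33 ± 0.87 (SE; adjusted p = 0.00164). Without M0D055219G it was 3.74 (adjusted p = 0.0416), and with a term for body size 3.11 (adjusted p = 0.0798), so that its call was lost in both. Orange tube feet outside the fit held 34.4 CPM of g2983 in M0D055236X and 33.6 CPM in M0D055230R. Both lay above the 0 to 7.49 CPM of the 4 fitted ones. Brown tube feet of M0D055233U held 3.73 CPM. Orange dermis held 4.66 CPM in M0D055236X and 41.4 CPM in M0D055221I, and brown dermis 0 CPM in M0D055233U and 14.4 CPM in M0D055229Q. Of the orange animals 3 were smaller and 1 larger, and of the brown animals 2 were smaller and 5 larger. With a term for body size beside colour 64 genes were called, and with a term for pairs of 1 batch 53, both tried after the data had been seen.

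**Figure D5:**
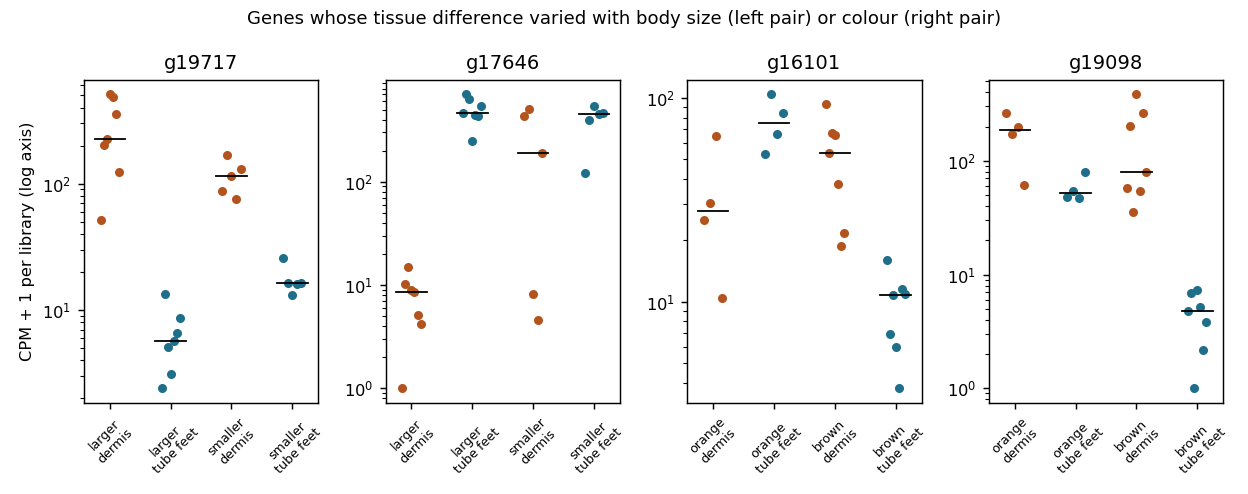
CPM + 1 per library on a log axis, with group medians as bars, for 2 genes called for body size (g19717 and g17646; larger against smaller animals) and 2 called for colour (g16101 and g19098; orange against brown animals). The 4 orange tube feet libraries of g16101 lie between 52.2 and 103 CPM, above the brown ones at 2.76 to 15.0 CPM, while the dermis libraries of both colours overlap.

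Feeding gave no called gene. In the 2 feeding animals against the 10 labelled not feeding, 0 of 15148 genes differed in their tissue difference (0%; edgeR, false discovery rate under 0.01), 343 did at an unadjusted p under 0.05 (2.26%), and DESeq2 called 0. Both feeding animals were larger and brown. Within the pairs of 1 batch 8 genes were called, and at equal depth 1. In simulated data the feeding test called 0 of 67 genes given a 4-fold change and 16 of 64 given an 8-fold change. A count of 0 therefore says little about changes of that size or smaller.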

How the data were processed

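RNA was extracted with a Qiagen RNeasy kit and made into libraries with the Illumina TruSeq RNA kit v2, per the labels' protocols. This kit does not mark strand, so reads of overlapping genes on opposite strands cannot be told apart. Trim Galore 0.4.4, TopHat2 2.0.13, SAMtools 0.1.19 and edgeR are named in the submitters' processing notes. The sources used here do not give the counter, genome build or annotation. The deposited files hold raw counts for 21777 genes and 5 summary lines per library, and the summary lines were left out of library sizes and tests. They took 78.3% to 88.4% of the counted lines as reads outside genes.

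The counts were tested with edgeR 4.0.16 in R 4.3.3 (quasi-likelihood F-test, TMM factors, animal as block, genes averaging 1 CPM or more over the 24 libraries, Benjamini-Hochberg false discovery rate under 0.01). The filter and the rate are those of the design text, and the filter kept at least 99.8% of gene reads. Of all genes, 2769 had no read in the 24 libraries. Libraries were paired by the individual named in the labels. Across genes, deviations from the tissue means correlated at r = 0.0614 to 0.266 between libraries of 1 animal, against a median of -0.0163 between animals, and 11 of 12 dermis libraries were closest to their own animal's tube feet. Body size, colour and feeding were tested as interactions with tissue. Standard errors are the log2 fold change over the square root of F, and CPM values carry TMM factors. Log2 CPM used a prior count of 2. Libraries of separate animals are the replicates. Values of 1 library rest on counting error as well as biology, and reads without molecular identifiers are not independent molecules.

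Named genes follow a rule: for tissue, those described in the text, and for the interactions, the 2 called genes with the smallest p in each direction among those averaging 10 CPM or more in the tissue where they were higher. Groups, tests and lists were chosen with earlier results of these data known. Alternatives were other scalings, filters and tests (DESeq2 1.42.0 among them), batch terms, subsets of animals, equal depth by thinning and leaving out each animal. The tests for tissue, size, colour and feeding were tried on simulated data first. Of genes given a 4-fold change there, 76.1% were called for tissue, 10.6% for size, 12.3% for colour and 0% for feeding.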

Additional observations from a re-analysis of the deposited data

Results flagged for a closer look

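Of 24 groups of values examined for a single sample far from the rest, 1 was picked out, where chance picks about 1 in 20. It was the log2 difference of g18733 in larger animals, where M0D055225M stood at 9.5 and the other 6 larger animals between 5.19 and 6.91.

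The named genes of the size comparison are listed because their tissue difference was tested to vary with body size, larger minus smaller animals. The values are 4.67 for g7933, 2.81 for g19717, -4.49 for g2983 and -4.65 for g17646 on the log2 scale. The named genes of the colour comparison are listed because their tissue difference was tested to vary with colour, orange minus brown. These values are 4.33 for g2983, 2.33 for g9043, -3.92 for g16101 and -3.80 for g19098 on the log2 scale. The causes were not tested.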

How the results depend on the processing

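The tissue comparison gave 4168 genes as reported and 3325 to 4785 under other scalings, no filter, DESeq2, a robust fit, batch terms, 1 site or equal depth. Without the replicate block, that is with the pairing by animal left out, it gave 3945. It gave 2493 with filterByExpr, which kept 5792 genes, 1174 against a minimum fold of 2 and 2255 with the 7 pairs of 1 batch. Leaving out each animal gave 3621 to 4126.

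The count of 14 genes for body size became 0 without the replicate block, with filterByExpr and against a minimum fold of 2. It became 72 with no filter, 96 in pairs of 1 batch, 49 at equal depth and 6 with size class as a rank. With a term for pairs of 1 batch or for colour, both added later, there were 101 and 29. Leaving out each animal gave 0 to 58. The count of 43 genes for colour became 2 without the replicate block, 0 with filterByExpr, 15 with DESeq2, 17 in a robust fit and 23 against a minimum fold of 2. Leaving out each animal gave 32 to 74. Feeding gave 8 genes in pairs of 1 batch, 1 at equal depth and 0 otherwise.

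The genes named for size lost their calls in 7 or 8 of their alternatives each, and those named for colour in 1 to 5, with the sign kept. These counts leave out fits that gave a gene no adjusted p. Those were filterByExpr and DESeq2 for g2983 in both comparisons, and DESeq2 for g19717 in the size comparison. In animals outside the comparison, the share of called genes with the fitted direction was 83.7%, 87.9%, 86.0% and 84.7% among genes called beyond 4-fold. The 6 library measures kept their direction in each alternative run. In the 7 pairs of 1 batch the exact permutation test gave adjusted p = 0.0234 to 0.0469 for them. With 7 pairs this test cannot give a p under 0.01, so these values are no sign of a weaker difference. The causes were not tested. Low depth limits all of this most for genes of a few CPM. By library size alone 1 read is 1.37 to 2.67 CPM, and with TMM factors it was 4.05 CPM in dermis of M0D055224L.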

Other observations

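Genes with consecutive ID numbers were often called together. Of the 1374 genes called higher in dermis whose next number was also tested, 309 were followed by a gene called higher (22.5%, against 11.4% of all genes tested). Of the 1902 genes called lower whose next number was tested, 429 were followed by a gene called lower (22.6%, against 16.1%). A gene called lower was followed by one called higher in 9.15% of cases, below the 11.4% of all genes. The sources used here do not give what the numbering follows.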
